A study of Mus musculus with 8 samples.

Results

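The comparison set the wild-type chondrocytes of 2 Mir140 mouse lines against each other, the CT wild types against the CG wild types. Its members are the 4 libraries whose labels call them wild types of either line, out of 8 libraries in the series, and the other 4 are mutants. The values were described across 14359 of the 18501 genes listed, those that passed a filter on low counts, and the other 4142 were not tested. Neither group is labelled as carrying a Mir140 alteration, so a difference between them is one of line, culture or batch, which cannot be told apart in this design.

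The series measured mRNA of mice in which Mir140, the gene of the cartilage microRNA miR-140, was altered in 2 ways that are described as overexpressing its 5p arm. The CG mutants carry a changed seed region in the 3p arm, the CT mutants carry a C>T base change, and either line comes with 2 libraries of wild types. CG wild types, CT wild types, CG mutants and CT mutants all came from the CD1 strain at the age of 10 days. Rib cartilage was digested overnight with collagenase II in serum-containing medium, cells were passed through a filter and put on plates before TRIzol lysis, so the libraries hold cells after release from their matrix and a time in culture that is not given. How many animals went into a library is not in the labels, so p-values reflect library-to-library spread only, part of which may be technical.

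Chondrocytes of the ribs build a matrix of type II, IX and XI collagen and aggrecan, and in the growth plate they go on to hypertrophy, marked by type X collagen. In culture, chondrocytes that receive interleukin 1 or interleukin 6 signals are known to make matrix metalloproteinases, chemokines and acute phase proteins. Cells also answer low oxygen, misfolded protein and amino acid shortage with separate groups of genes, read by the factors HIF, HSF1 and ATF4. These groups are described first, then the matrix, growth factors and other cell types.

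Counts of the CG wild types totalled 28267472 and 26536868, and those of the CT wild types 27633372 and 27627450, so depth was alike. The 10 chondrocyte markers, among them Col2a1, Acan and Sox9, summed to 33880 and 32750 CPM (counts scaled to a common library size) in the CG wild types and 62590 and 51680 CPM in the CT wild types. None of them was at 0, and Col2a1 made up most of the sum. Each group held 1 library rich in Y-linked Ddx3y, with 2 and 2511 counts for CG and 3669 and 10 for CT wild types. Haemoglobin genes took at most 0.00158% of counts in CG wild types but 0.273% and 0.166% in CT wild types. The part of blood cell RNA in the differences below was not tested.

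The wild types of the lines differed at a large share of genes. By edgeR's quasi-likelihood test, 4843 of 14359 genes had an adjusted p under 0.05, or 33.7%. Of these 2436 (17.0%) were higher and 2407 (16.8%) lower in CT wild types. With a change of at least 2-fold, 857 genes were higher (5.97%) and 938 lower (6.53%), and 102 and 97 genes passed 8-fold. In all but 1 of the 4843 genes, both CT wild types lay on the same side of both CG wild types. So did they in 71.1% of all genes tested, and the 4843 genes were picked by a test on the same libraries. The median absolute log2 difference between the groups was 0.37, against 0.14 between the 2 CG wild types and 0.20 between the 2 CT wild types. The share of genes that passed was 22.3% among the 25% of genes with the lowest expression and 41.1% among the highest 25%.

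These counts depend on the number of libraries and on the scaling. Without CG wild type replicate 1 the counts were 1128 higher and 1303 lower, without replicate 2 995 and 1142. Without CT wild type replicate 1 they were 1803 and 1708, and without replicate 2 1633 and 1461. Scaling by library totals alone in place of TMM factors moved the median log2 fold change of all genes from 0.0032 to 0.126 and the split to 3215 higher and 1672 lower. With upper quartile factors or relative log expression factors in edgeR the split stayed near even, at 2452 and 2329 or 2449 and 2378, while on log2(FPKM + 1) with limma it was 3248 and 1567. The changes given below are relative to the typical gene. Counts of list members that passed are to be read beside 17.0% higher and 16.8% lower among all genes tested. Where 4 leave-out counts follow a list, they stand in this order: first without replicate 1 of the CG wild types, next replicate 2 of these, then replicate 1 and last replicate 2 of the CT wild types.

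**Figure D1:**
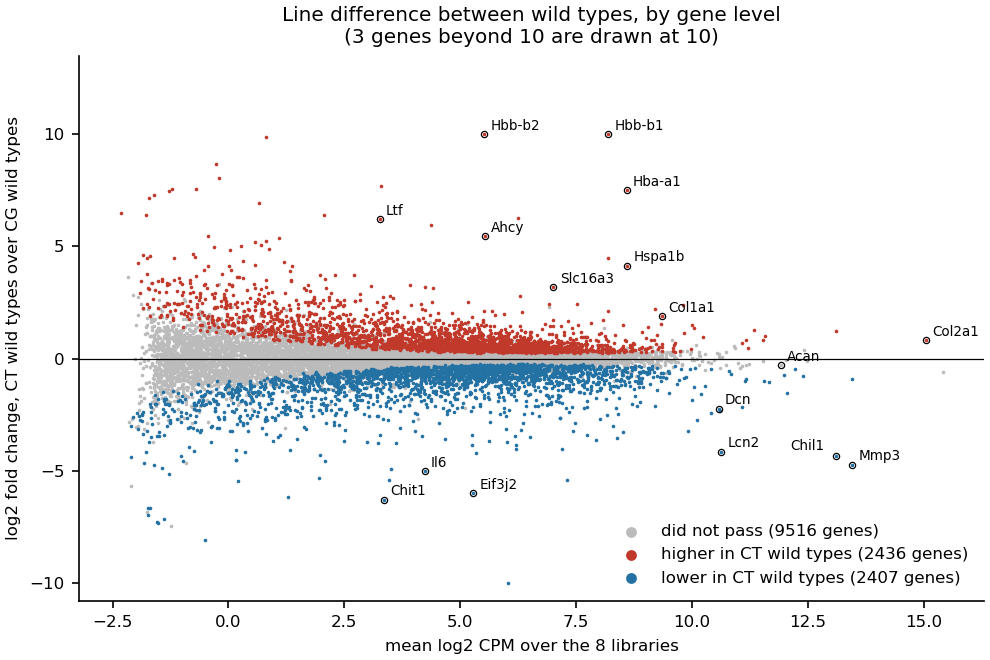
Log2 fold change of CT over CG wild types (y axis) against mean log2 CPM over the 8 libraries (x axis), 1 point a gene. The 2436 red genes were higher and the 2407 blue genes lower in CT wild types at an adjusted p under 0.05, and Mmp3 and Chil1 combine a high level with one of the largest falls.

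Several matrix metalloproteinases and chitinase family genes were much lower in CT wild types. Mmp3, the matrix metalloproteinase stromelysin 1, was at 19071 and 25665 CPM in the CG wild types and 1057 and 637 CPM in the CT wild types. The groups lay far apart, with a log2 fold change (SE) of -4.72 ± 0.30 (adjusted p 0.00013 by edgeR), which is 26.4-fold lower in CT. Chil1, a chitinase-like protein secreted by inflamed joint cells, was at 13043 and 17639 CPM in CG and 946 and 545 CPM in CT wild types (log2 fold change -4.36 ± 0.31). Chit1, an active chitinase, had the largest fall in the set of genes named by rule, from 13.9 and 22 CPM to 0.247 and 0.204 CPM. Mmp12, the macrophage elastase, was at 468 and 425 CPM in CG and 12.1 and 8.67 CPM in CT wild types. Mmp13, the main collagenase of cartilage, was at 1713 and 2684 CPM and 300.1 and 176 CPM (log2 fold change -3.21 ± 0.43, adjusted p 0.00153 by edgeR). In each of these 5 genes the lower CG library exceeded the higher CT library several times over.

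Mmp13, Mmp12, Mmp1b, Mmp3 and Mmp10 are neighbours in the gene order of the RefSeq table, and all 5 were lower in CT wild types, with log2 fold changes from -5.43 to -2.46. Such an unbroken run of 5 tested neighbours was matched by 5 other runs and exceeded by 1, the run of 6 from Abcc4 to Mbnl2 with log2 fold changes from -1.62 to -0.29. Among runs of higher genes the longest held 4. Of the 23 metalloproteinases, ADAMTS enzymes and TIMP inhibitors tested, 6 were lower and 0 higher, and the median log2 fold change was -0.45 beside 0.0032 over all genes tested. The lower ones outside the run were Adamts6, at 2.25 and 3.91 CPM in CG and 0.846 and 0.34 CPM in CT wild types, and the inhibitor Timp3, at 2799.5 and 3000.3 CPM and 1530.1 and 1354 CPM. The aggrecanase Adamts5 did not pass (log2 fold change -1.30 ± 0.45, adjusted p 0.0573 by edgeR). Mmp1b did not pass without CG wild type replicate 2 or without CT wild type replicate 1 (adjusted p 0.0826 to 0.087 by edgeR). Mbnl2 did not pass without CG wild type replicate 1 (adjusted p 0.0574 by edgeR). Adamts6 did not pass without CG wild type replicate 2 (adjusted p 0.06 by edgeR). Timp3 did not pass without either CG wild type or without either CT wild type (adjusted p 0.0799 to 0.128 by edgeR).

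Genes of the acute phase, interleukin 6 and prostaglandin pathways were lower in CT wild types as a group. Of 29 tested, 23 were lower, 0 higher, and the median log2 fold change was -1.36. With 1 library less the counts were 14, 12, 18 and 13 lower. Il6, the cytokine interleukin 6, was at 46.8 and 52.2 CPM in CG and 1.62 and 1.39 CPM in CT wild types (log2 fold change -5.03 ± 0.73). Il11, a related cytokine, was at 514 and 608 CPM and 55.7 and 40.1 CPM. Lcn2, an iron-binding acute phase protein, was at 2163 and 2718 CPM and 175 and 101 CPM (log2 fold change -4.15 ± 0.35, adjusted p 0.000277 by edgeR). Haptoglobin, encoded by Hp, was at 98 and 146 CPM and 8.78 and 6.12 CPM, and serum amyloid Saa3 at 22.3 and 26.7 CPM and 0.882 and 0.714 CPM. In Il6, Il11, Lcn2, Hp and Saa3 both CT wild types were far below both CG wild types. Ptgs2, the inducible cyclooxygenase, had a log2 fold change of -2.72 ± 0.32, and Ptges, which makes prostaglandin E2, one of -1.11 ± 0.35. Outside the list, Lbp, a lipopolysaccharide-binding protein, was at 331 and 317 CPM in CG and 24.3 and 15.2 CPM in CT wild types. The factors that read these signals were lower too, Cebpb at 635 and 599.9 CPM against 199 and 162 CPM and Nfkbiz with a log2 fold change of -0.99 ± 0.20. None of the 29 genes had a log2 fold change above 0. Ptges did not pass without either CG wild type, either CT wild type or without either CT mutant (adjusted p 0.054 to 0.207 by edgeR). Nfkbiz did not pass without CG wild type replicate 2 (adjusted p 0.0543 by edgeR).

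Chemokine genes were more often lower than higher. Of 19 chemokine genes tested, 8 were lower and 1 higher (42.1% and 5.26% beside 16.8% and 17.0% of all genes), and the median log2 fold change was -1.27. The leave-out counts were 7, 4, 7 and 4 lower. Cxcl1, which attracts neutrophils, was at 1113 and 1589.8 CPM in CG and 408 and 208 CPM in CT wild types (log2 fold change -2.13 ± 0.43). Ccl5 was at 894 and 838 CPM and 241 and 191 CPM (adjusted p 0.000139 by edgeR). The 1 chemokine that was higher, Ccl6, was at 0.58 and 0.958 CPM in CG and 4.13 and 2.24 CPM in CT wild types, and it is made by myeloid cells. C3, the central complement component, was at 369.8 and 382 CPM in CG and 42.7 and 28.1 CPM in CT wild types, and Cfb, complement factor B, at 88.3 and 101 CPM and 8.68 and 6.32 CPM. Of the 15 complement genes tested these were the 2 lower ones and 1 was higher, a share of 13.3% lower that is no more than the 16.8% of all genes, and the list's median was 0.18. Interferon-stimulated genes were lower in 4 of 29, or 13.8%, which is near that background too, with 1 higher and a median of -0.32, and leave-out counts of 1, 3, 2 and 3 lower. Cxcl1 did not pass without CG wild type replicate 2 or without CT wild type replicate 2 (adjusted p 0.05 to 0.0506 by edgeR). Ccl6 did not pass without CG wild type replicate 1 or without CT wild type replicate 1 (adjusted p 0.0564 to 0.0774 by edgeR).

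The RefSeq promoter windows, 300 bases from 250 before to 50 after a start on GRCm38.p6, were searched for the NF-kB motif on both strands, since NF-kB is known to turn on many genes of this kind. The motif was found in 14 of the 37 acute phase and chemokine genes with a window (37.8%), in 12.6% of all tested genes and in 8.46% of all 32851 windows. Of all genes lower in CT wild types 13.2% held it, and of those higher 14.1%. The window of Steap4, a metalloreductase of the acute phase, is shown as that of a member with a strong fall and 2 matches, in capitals (chr5:7960222-7960521 on GRCm38.p6, plus strand). Steap4 was at 205 and 201 CPM in CG and 41.6 and 27.4 CPM in CT wild types. A match is a description of these letters and not a site.
Steap4: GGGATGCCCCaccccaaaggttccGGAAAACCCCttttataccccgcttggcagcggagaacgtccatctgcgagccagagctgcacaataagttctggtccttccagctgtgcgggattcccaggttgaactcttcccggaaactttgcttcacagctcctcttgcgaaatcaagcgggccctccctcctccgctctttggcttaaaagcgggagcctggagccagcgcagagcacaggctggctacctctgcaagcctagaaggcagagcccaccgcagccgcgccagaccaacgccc

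Some genes with the smallest p-values or largest changes stood in none of the pathway groups described. Mertk, a receptor tyrosine kinase that serves the uptake of dying cells, was at 10.4 and 9.66 CPM in CG and 55.7 and 59.4 CPM in CT wild types (log2 fold change 2.52 ± 0.10, adjusted p 8.67e-05 by edgeR). Trip10 and Triobp, whose proteins act on the actin skeleton, had log2 fold changes of 1.84 ± 0.10 and 1.99 ± 0.11. Maf, a leucine zipper transcription factor gene, was at 67.5 and 61.1 CPM in CG and 12.9 and 12.8 CPM in CT wild types. Cpm, carboxypeptidase M on the cell surface, was at 521 and 497 CPM and 96.3 and 80.8 CPM (log2 fold change -2.52 ± 0.12). Dio2, which activates thyroid hormone, was at 199 and 190.4 CPM and 39.5 and 32.3 CPM. Among the largest falls stood Asic3, an acid-sensing ion channel gene, at 13.3 and 18.2 CPM and 0.564 and 0.17 CPM, Cyp24a1, which breaks down vitamin D, at 4.42 and 10.1 CPM and 0.705 and 0.034 CPM, and Ch25h, which makes 25-hydroxycholesterol, at 8.95 and 11 CPM and 0.247 and 0.238 CPM. In Mertk, Maf, Cpm, Asic3 and Ch25h the libraries of each group were close to each other beside the gap between groups, whereas Cyp24a1 spread widely within both. Ch25h did not pass without CG wild type replicate 2 or without either CT wild type (adjusted p 0.0505 to 0.0782 by edgeR).

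**Figure D2:**
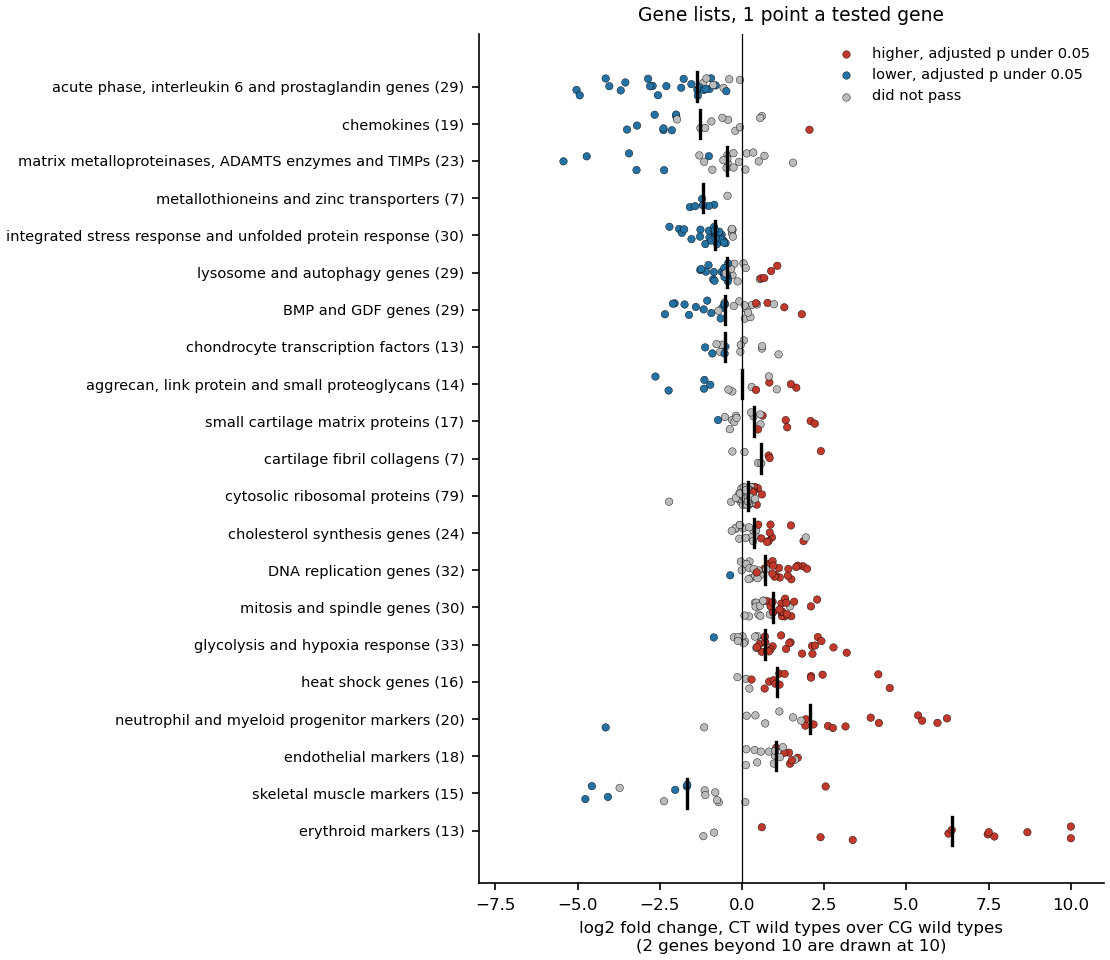
Log2 fold change of CT over CG wild types (x axis) for the tested members of 21 gene lists (y axis, number tested in brackets), 1 point a gene, with a black bar at the list median. The medians of the acute phase and stress response genes lie left of 0, and those of the heat shock, glycolysis and erythroid genes right of it.

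Most genes listed for the integrated stress response and unfolded protein response had lower mRNA in CT wild types. ATF4 turns on genes of amino acid synthesis and transport when protein synthesis is curbed, and the endoplasmic reticulum answers unfolded protein with chaperones. Of 30 genes tested, 25 were lower and 0 higher, and the median log2 fold change was -0.82. The leave-out counts, 23, 12, 24 and 16 lower, were smallest without CG wild type replicate 2. Atf4 was at 1244 and 1280.2 CPM in CG and 781 and 667 CPM in CT wild types (log2 fold change -0.80 ± 0.11). Its target Ddit3, the factor CHOP, was at 148 and 149.9 CPM and 51.6 and 32.3 CPM. Slc7a11, the cystine importer, was at 467 and 485 CPM and 174 and 107 CPM, and Mthfd2, of mitochondrial folate metabolism, at 384 and 404 CPM and 209 and 155 CPM. The reticulum chaperone genes had log2 fold changes of -0.62 ± 0.13 for Hsp90b1, -0.81 ± 0.12 for Calr and -0.76 ± 0.15 for Pdia4. Hspa5, the chaperone BiP, did not pass (log2 fold change -0.30 ± 0.17, adjusted p 0.199 by edgeR). Hsp90b1 did not pass without CG wild type replicate 2 or without CT wild type replicate 2 (adjusted p 0.059 to 0.0807 by edgeR). Pdia4 did not pass without CG wild type replicate 2 (adjusted p 0.057 by edgeR).

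The C/EBP-ATF response element TGATGNAA, searched on both strands, was found in the windows of 6 of 26 of these genes (23.1%), in 2.93% of tested genes and in 3.97% of all windows. Over all genes, it stood in 4.77% of those lower in CT wild types, in 1.91% of those higher and in 2.72% of those that did not pass. The members with it were Trib3, Chac1, Asns, Slc7a11, Vldlr and Herpud1. The window of Trib3, a pseudokinase induced by CHOP and ATF4, is shown since Trib3 had the smallest p-value of the list, and its match is in capitals (chr2:152344011-152344310 on GRCm38.p6, minus strand). Trib3 was at 233 and 285 CPM in CG and 64.1 and 48 CPM in CT wild types (log2 fold change -2.21 ± 0.17, adjusted p 0.000212 by edgeR).
Trib3: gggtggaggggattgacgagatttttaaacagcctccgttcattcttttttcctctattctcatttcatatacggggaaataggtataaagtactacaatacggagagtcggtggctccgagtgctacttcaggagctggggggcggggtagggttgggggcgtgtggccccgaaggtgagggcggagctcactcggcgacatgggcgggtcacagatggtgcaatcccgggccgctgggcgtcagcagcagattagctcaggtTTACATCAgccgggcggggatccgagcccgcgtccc

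Metallothioneins, small proteins that bind zinc and copper, were lower with the zinc transporters. Of 7 genes tested, 6 were lower and 0 higher, and the median log2 fold change was -1.19, with leave-out counts of 6, 5, 6 and 5 lower. Mt1 was at 435 and 615 CPM in CG and 256 and 204 CPM in CT wild types (log2 fold change -1.19 ± 0.19), and Mt2 at 763 and 1022 CPM and 476 and 407 CPM. The zinc exporter Slc30a1 was at 165 and 147 CPM and 94.3 and 79.3 CPM, and the importer Slc39a14 at 1599.5 and 1932 CPM and 869 and 654 CPM. In each of these 4 genes the CT wild types lay below both CG wild types. The metal response element was searched as TGCACNC and TGCGCNC on both strands. It stood in the windows of all 6 members with a window, but also in 40.1% of tested genes and 25.7% of all windows. Over all genes it stood in 43.8% of those higher and 39.7% of those lower in CT wild types. The Mt1 window is shown because it held 3 matches, in capitals (chr8:94178839-94179138 on GRCm38.p6, plus strand). Mt2 did not pass without CG wild type replicate 2 or without CT wild type replicate 2 (adjusted p 0.0541 to 0.0578 by edgeR).
Mt1: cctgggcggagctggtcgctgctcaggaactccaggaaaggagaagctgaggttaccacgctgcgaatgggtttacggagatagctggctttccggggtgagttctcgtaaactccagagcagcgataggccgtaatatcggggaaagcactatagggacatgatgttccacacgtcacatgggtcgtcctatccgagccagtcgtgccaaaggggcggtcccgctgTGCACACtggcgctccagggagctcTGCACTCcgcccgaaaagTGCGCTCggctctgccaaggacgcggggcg

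Lysosomal enzymes were lower as well. Of 29 lysosome and autophagy genes tested, 16 were lower and 4 higher, and the median log2 fold change was -0.46. The leave-out counts were 10, 6, 10 and 14 lower. Npc2, which carries cholesterol out of lysosomes, was at 290.2 and 304 CPM in CG and 119 and 132 CPM in CT wild types. Ctsk, the collagen-degrading cathepsin K, was at 77.4 and 95.9 CPM and 53.4 and 32.1 CPM. Among the higher members, Map1lc3a and Gabarapl1 encode proteins of the autophagosome membrane, and their log2 fold changes were 0.89 ± 0.11 and 1.07 ± 0.14. The other two were Tfeb, a factor that turns on lysosomal genes, and the cathepsin gene Ctsf, with log2 fold changes of 0.68 ± 0.14 and 0.58 ± 0.12. The antioxidant factor gene Nfe2l2 was lower, at 216 and 227 CPM in CG and 143 and 111 CPM in CT wild types. In its list 6 of 22 genes were lower and 1 higher (27.3% and 4.5% beside 16.8% and 17.0% of all genes). Ctsk, Tfeb and Ctsf did not pass without CG wild type replicate 2 (edgeR adjusted p 0.0667 for Ctsk, 0.0652 for Tfeb and 0.0621 for Ctsf).

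Glycolysis and hypoxia response genes were higher in CT wild types. Of 33 genes tested, 22 were higher and 1 lower, and the median log2 fold change was 0.71, with leave-out counts of 18, 16, 19 and 21 higher. Pfkl, the liver type subunit of phosphofructokinase, was at 53.1 and 63.3 CPM in CG and 296 and 324 CPM in CT wild types, 5.33-fold higher, with a log2 fold change of 2.41 ± 0.11 (adjusted p 8.93e-05 by edgeR). Slc16a3, the lactate exporter MCT4, was at 20.3 and 29 CPM and 229 and 219 CPM (log2 fold change 3.18 ± 0.21). Tpi1, triosephosphate isomerase, was at 97.8 and 119 CPM and 463 and 493 CPM. Pdk1, which keeps pyruvate out of mitochondria, was at 16.1 and 19.1 CPM and 79.9 and 74.1 CPM. In these 4 genes both CT wild types lay several times above both CG wild types. Car9, a carbonic anhydrase induced by low oxygen, had a log2 fold change of 2.31 ± 0.40, and Vegfa, the blood vessel growth factor, one of 0.46 ± 0.21, which did not pass with an edgeR adjusted p of 0.124. The gene of the factor HIF-1alpha, Hif1a, did not pass either, at -0.25 ± 0.15, and Epas1, the gene of HIF-2alpha, was the 1 lower member, at 64.9 and 52.4 CPM in CG and 29.2 and 35.6 CPM in CT wild types. Epas1 did not pass without CG wild type replicate 1 or without CT wild type replicate 1 (adjusted p 0.0541 to 0.0622 by edgeR).

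The hypoxia response core ACGTG, searched on both strands, was found in the windows of 21 of 31 of these genes (67.7%), in 28.5% of tested genes and in 19.6% of all windows. Over all genes it stood in 30% of those higher and 29.5% of those lower in CT wild types. Bnip3, which marks mitochondria for removal, is shown as the member with the smallest p-value among those with a match, and its 2 matches, in capitals, overlap on opposite strands (chr7:138909457-138909756 on GRCm38.p6, minus strand). Bnip3 was at 17.3 and 22.4 CPM in CG and 150.3 and 122 CPM in CT wild types (log2 fold change 2.78 ± 0.16).
Bnip3: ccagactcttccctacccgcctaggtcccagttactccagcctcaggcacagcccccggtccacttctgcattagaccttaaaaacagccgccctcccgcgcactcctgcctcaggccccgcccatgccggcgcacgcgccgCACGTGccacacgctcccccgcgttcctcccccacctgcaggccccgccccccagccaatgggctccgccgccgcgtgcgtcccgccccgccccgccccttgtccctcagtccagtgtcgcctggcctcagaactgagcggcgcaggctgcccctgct

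Heat shock genes, mostly of cytosolic chaperones turned on by HSF1, were higher in CT wild types. Of 16 tested, 13 were higher and 0 lower, and the median log2 fold change was 1.08. Leave-out counts were 12, 11, 12 and 12 higher. Hspa1a and Hspa1b, near-identical copies of the inducible HSP70 gene between which reads may be divided, summed to 99.1 and 58.9 CPM in CG and 1845 and 1238 CPM in CT wild types. Hsp90aa1 was at 584 and 566 CPM and 1259.6 and 1276 CPM (log2 fold change 1.14 ± 0.09). Dnajb1, a partner of HSP70, was at 30.1 and 35 CPM and 149 and 129.6 CPM, with an edgeR adjusted p of 0.00011. Cryab, a small chaperone, was at 20.5 and 15.2 CPM and 75.9 and 77.3 CPM. The 3 members that did not pass had log2 fold changes from -0.14 to 0.22. Most heat shock genes were thus higher in the libraries in which Hsp90b1, Calr and Pdia4 of the reticulum were lower.

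The heat shock element was searched as GAANNTTC, which reads the same on both strands, and was found in the windows of 9 of 12 heat shock genes with a window (75%), in 6.89% of tested genes and in 7.86% of all windows. Over all genes it stood in 6.26% of those higher and 7.13% of those lower. Hspb1, the small heat shock protein HSP27, is shown for its 2 matches, in capitals (chr5:135887669-135887968 on GRCm38.p6, plus strand). Hspb1 was at 43.1 and 39.8 CPM in CG and 271 and 182 CPM in CT wild types (log2 fold change 2.45 ± 0.20, adjusted p 0.000277 by edgeR).
Hspb1: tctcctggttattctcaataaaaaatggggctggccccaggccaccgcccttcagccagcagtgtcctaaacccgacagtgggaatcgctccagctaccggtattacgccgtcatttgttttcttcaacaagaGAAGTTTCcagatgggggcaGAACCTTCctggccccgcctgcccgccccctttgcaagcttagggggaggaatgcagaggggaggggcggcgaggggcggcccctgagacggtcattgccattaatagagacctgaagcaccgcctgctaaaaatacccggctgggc

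Genes of cell division were higher in CT wild types. Of 32 DNA replication genes tested, 18 were higher and 1 lower, and the median log2 fold change was 0.71. Of 30 mitosis and spindle genes, 17 were higher and 0 lower, with a median of 0.94. The leave-out counts were 11, 13, 19 and 13 higher replication genes and 8, 5, 9 and 17 higher mitosis genes. Mki67, the proliferation marker Ki-67, was at 6.05 and 5.23 CPM in CG and 15.9 and 11.8 CPM in CT wild types (log2 fold change 1.30 ± 0.22, adjusted p 0.00447 by edgeR). Top2a, topoisomerase II alpha, was at 4.53 and 4.47 CPM and 12.2 and 11 CPM. Uhrf1, which copies DNA methylation to new strands, was at 3.19 and 2.91 CPM and 10.7 and 13.4 CPM. The lower member was Tyms, thymidylate synthase, with a log2 fold change of -0.36 ± 0.10. The CT wild types were above both CG wild types in Mki67, Top2a and Uhrf1, at levels of a few CPM. Tyms did not pass without either CG wild type or without CT wild type replicate 2 (adjusted p 0.0829 to 0.159 by edgeR).

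The E2F motif was searched as TTTCCCGC and TTTGGCGC on both strands. It was found in the windows of 9 of 26 replication genes (34.6%), in 3.25% of tested genes and in 1.56% of all windows. Over all genes it stood in 3.83% of those higher and 2.62% of those lower in CT wild types. Mcm3, a subunit of the replication helicase, is shown as the member with the smallest p-value and 2 matches, in capitals (chr1:20820263-20820562 on GRCm38.p6, minus strand). Mcm3 was at 23.1 and 24.2 CPM in CG and 60.5 and 73.3 CPM in CT wild types (log2 fold change 1.50 ± 0.12).
Mcm3: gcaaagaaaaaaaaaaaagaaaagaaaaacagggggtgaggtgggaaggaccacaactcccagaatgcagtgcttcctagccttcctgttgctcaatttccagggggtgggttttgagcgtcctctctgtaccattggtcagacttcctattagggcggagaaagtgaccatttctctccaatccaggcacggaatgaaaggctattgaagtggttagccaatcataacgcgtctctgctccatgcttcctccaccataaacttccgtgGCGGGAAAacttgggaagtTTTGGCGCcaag

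Cholesterol synthesis genes followed in the same direction. Of 24 tested, 9 were higher and 0 lower, and the median log2 fold change was 0.38, with leave-out counts of 7, 7, 7 and 8 higher. Fdft1, squalene synthase, was at 6.05 and 6.15 CPM in CG and 22.3 and 22.3 CPM in CT wild types (log2 fold change 1.87 ± 0.18). Sc5d, a desaturase of the last steps, was at 13.9 and 14.7 CPM and 26.2 and 27.7 CPM, and Insig1, which holds the sterol sensor in the endoplasmic reticulum, at 53.2 and 48.3 CPM and 91.5 and 85.9 CPM. In these 3 genes both CT libraries were above both CG libraries. Cytosolic ribosomal protein genes were higher in 9 and lower in 0 of 79, with a median of 0.18. With library totals as the only scaling 32 were higher, and the leave-out counts were 1, 2, 11 and 2. A share of 11.4% higher is below the 17.0% of all genes.

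**Figure D3:**
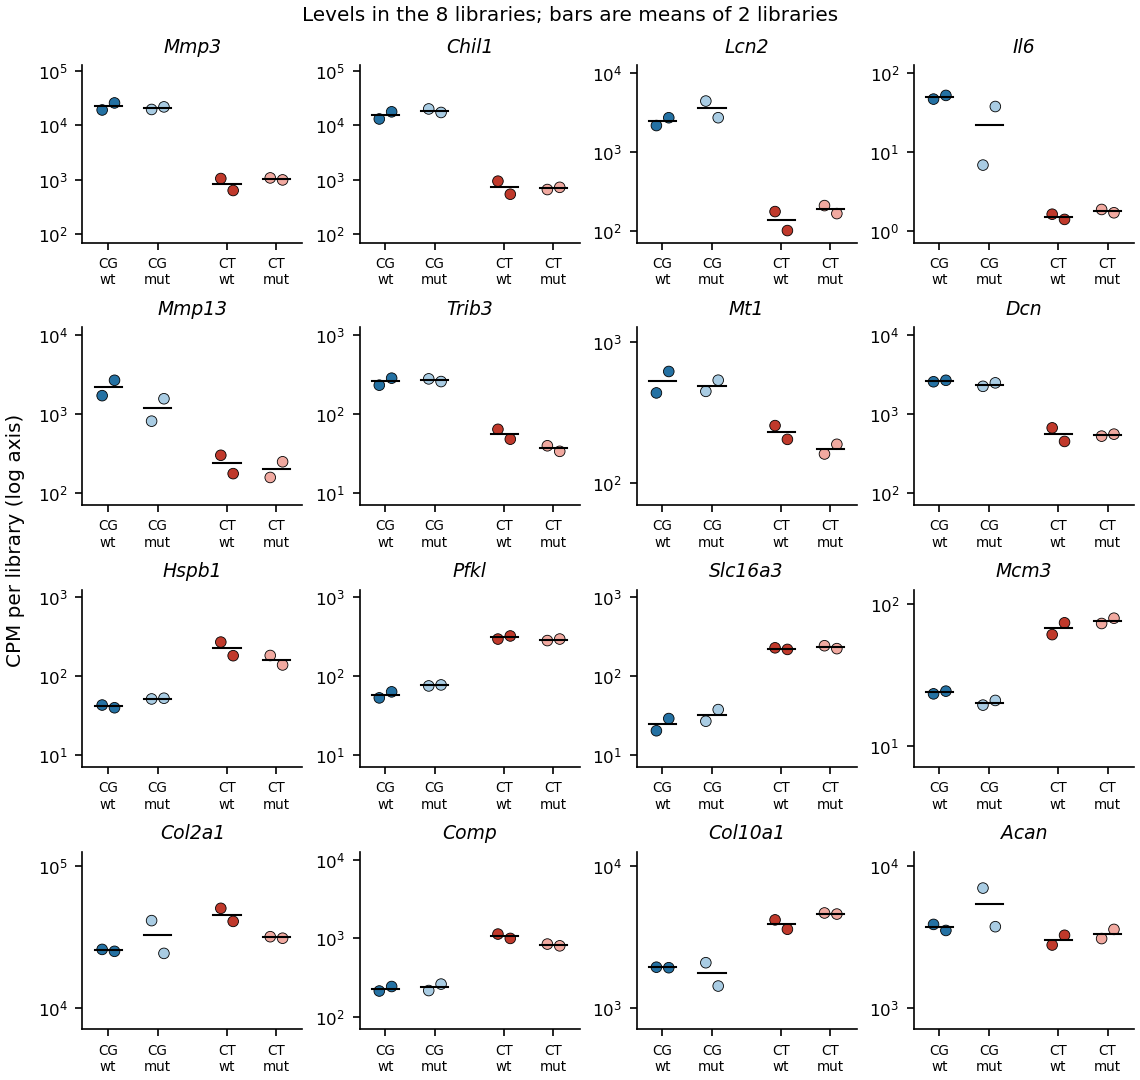
CPM in each of the 8 libraries (y axis, log scale) for 16 genes, with bars at the mean of 2 libraries, for CG and CT wild types (wt) and mutants (mut). In Mmp3, Chil1, Dcn, Pfkl and Slc16a3 the wild types of each line lie beside the mutants of the same line, while Col2a1 and Acan spread most in the CG mutants.

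Cartilage matrix genes differed in both directions. Col2a1, type II collagen and the marker of the cell type, was at 25753 and 24960 CPM in CG and 50163 and 40571 CPM in CT wild types. The CT wild types were above both CG wild types, with a log2 fold change of 0.84 ± 0.27 that passed narrowly, at an edgeR adjusted p of 0.0436. In the order of the leave-out counts, that adjusted p was 0.149, 0.173, 0.172 and 0.074 with 1 library less, and the call was also lost without either CT mutant. Col9a1, of the type IX collagen that coats the fibril, was at 308 and 326 CPM and 1954 and 1385 CPM (log2 fold change 2.40 ± 0.23), and Col11a2 was at 2254 and 2224 CPM and 4495 and 3354 CPM. These were the 3 of 7 fibril collagens that were higher, and the leave-out counts were 1, 1, 1 and 2. The other members, Col9a2, Col9a3, Col11a1 and Col27a1, had log2 fold changes from -0.29 to 0.59 and did not pass. Col11a2 did not pass without either CG wild type or without CT wild type replicate 1 (adjusted p 0.0955 to 0.111 by edgeR).

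Of the proteoglycans, 4 of 14 were higher and 5 lower, with leave-out counts of 3, 2, 3 and 3 higher and 3, 3, 4 and 3 lower. Acan, aggrecan, was at 3864 and 3502 CPM in CG and 2765 and 3239.5 CPM in CT wild types and did not pass, with a log2 fold change of -0.29 ± 0.27 (adjusted p 0.42 by edgeR). Dcn, decorin, a small proteoglycan that binds collagen and TGF-beta, was at 2571 and 2683 CPM and 669 and 449.5 CPM, 4.7-fold lower in CT. Prg4, the joint lubricant lubricin, was at 241 and 317 CPM and 50.9 and 39 CPM. Bgn, biglycan, the nearest relative of decorin, went the other way, at 1796 and 1696 CPM and 3474 and 2739 CPM (log2 fold change 0.83 ± 0.16). Chad, chondroadherin, was at 222 and 239.8 CPM and 804 and 489.6 CPM. The shares of the list that passed, 28.6% higher and 35.7% lower, stand beside 17.0% and 16.8% of all genes. All 14 members had groups that did not overlap, as did 71.1% of all tested genes. Bgn did not pass without CG wild type replicate 2 (adjusted p 0.0571 by edgeR).

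Small matrix proteins were higher in 6 of 17 and lower in 1 (35.3% and 5.88% beside 17.0% and 16.8% of all genes). Comp, cartilage oligomeric matrix protein, was at 215 and 245 CPM in CG and 1132 and 997 CPM in CT wild types, 4.64-fold higher, with a log2 fold change of 2.21 ± 0.13 (adjusted p 0.000124 by edgeR). Matn3, matrilin 3, was at 13.1 and 14.2 CPM and 42.7 and 28.3 CPM. The lower one, Matn2, is a matrilin found in many connective tissues, with a log2 fold change of -0.73 ± 0.13. The leave-out counts of the list were 2, 2, 3 and 7 higher. Matn3 did not pass without either CG wild type (adjusted p 0.0501 to 0.0585 by edgeR).

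Among chondrocyte transcription factors 4 of 13 were lower and 0 higher (30.8% and 0% beside 16.8% and 17.0% of all genes). Sox9, the factor that sets chondrocyte identity, was at 653 and 590.3 CPM in CG and 652 and 641 CPM in CT wild types, with a log2 fold change of 0.06 ± 0.22 (adjusted p 0.86 by edgeR). Its partners Sox5 and Sox6 were lower, with log2 fold changes of -0.53 ± 0.17 and -0.90 ± 0.26, and the zinc finger factor Trps1 at -1.12 ± 0.14. Without 1 library the counts were 1, 1, 3 and 1 lower. Sox5 did not pass without either CG wild type, CT wild type replicate 2 or without either CT mutant (adjusted p 0.0737 to 0.223 by edgeR). Sox6 did not pass without either CG wild type or without either CT wild type (adjusted p 0.0631 to 0.148 by edgeR).

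Hypertrophy genes passed at about the rate of all genes, with 4 of 20 higher and 4 lower (20% and 20% beside 17.0% and 16.8% of all genes), and leave-out counts of 3, 3, 4 and 4 higher and 3, 2, 5 and 2 lower. Col10a1, type X collagen, was at 1929 and 1913 CPM in CG and 4158 and 3571 CPM in CT wild types (log2 fold change 1.01 ± 0.18, adjusted p 0.00559 by edgeR). Pth1r, the receptor of parathyroid hormone-related protein, was at 2.57 and 2.75 CPM and 9.03 and 8.84 CPM, while Ihh, Indian hedgehog, was lower, at 2.03 and 1.52 CPM in CG and 0.282 and 0.136 CPM in CT wild types. Runx2 had a log2 fold change of -0.44 ± 0.17 and did not pass. The collagenase gene Mmp13, given above, is the lower member with the largest fall.

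Collagens of other connective tissue cells included some higher and some lower genes. Col1a1, the main type I collagen chain of bone, tendon and dedifferentiated chondrocytes, was at 312 and 302 CPM in CG and 1249 and 1021 CPM in CT wild types (log2 fold change 1.89 ± 0.43, adjusted p 0.0132 by edgeR). Col1a2 was at 415 and 311 CPM and 1077 and 1039 CPM, and Col3a1 had a log2 fold change of 1.36 ± 0.55 that did not pass. Col6a1, a pericellular collagen, was at 6414 and 6275 CPM and 3750.3 and 3766 CPM, and Col5a3 at 488 and 571 CPM and 126 and 104 CPM. Of 20 genes on the list, 3 were higher and 4 lower, 15% and 20% beside 17.0% and 16.8% of all genes. The leave-out counts were 0, 0, 0 and 2 higher and 4, 2, 2 and 4 lower. Col1a1 did not pass without either CG wild type or without CT wild type replicate 1 (adjusted p 0.054 to 0.0799 by edgeR). Col1a2 did not pass without either CG wild type or without either CT wild type (adjusted p 0.067 to 0.128 by edgeR).

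Of the elastic fibre genes 7 of 19 were lower and 2 higher (36.8% and 10.5% beside 16.8% and 17.0% of all genes). Lox, the enzyme that crosslinks collagen and elastin, was at 2847 and 2836 CPM in CG and 1451 and 1405 CPM in CT wild types, and Ltbp2, which binds fibrillin, at 2195 and 2645 CPM and 525 and 443 CPM, both lower in each CT library. Contractile genes were lower in 7 of 19 and higher in 2, with leave-out counts of 3, 5, 5 and 5 lower. Acta2, smooth muscle actin, was at 232 and 212 CPM in CG and 49 and 68.4 CPM in CT wild types, and Flna, filamin A, at 2820.5 and 3130.4 CPM and 1583 and 1608 CPM. Of 21 integrins and matrix receptors, 8 were lower and 3 higher, with leave-out counts of 7, 4, 7 and 7 lower. Itga1 and Itga2, subunits of collagen receptors, were lower, Itga1 at 94.3 and 82.3 CPM against 5.36 and 4.28 CPM. Other collagen receptor subunits stood among both the lower and the higher members of the list. Itga3, of a laminin receptor, was at 48.3 and 51.7 CPM and 153 and 173 CPM. The shares that passed were 36.8% lower and 10.5% higher for contractile genes and 38.1% and 14.3% for the receptor list.

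The BMP, TGF-beta, insulin-like and fibroblast growth factor lists held more lower than higher genes, unlike the WNT and Notch lists. The shares lower and higher were 41.4% and 13.8% for BMP and 38.1% and 19% for TGF-beta. They were 47.1% and 11.8% for the insulin-like and 31.6% and 5.26% for the fibroblast growth factor list, beside 16.8% and 17.0% of all genes. In the BMP and GDF list 12 of 29 were lower and 4 higher, with leave-out counts of 9, 9, 10 and 9 lower and 1, 3, 1 and 4 higher. Its ligand Gdf5, which shapes joints, was at 80.3 and 80.7 CPM in CG and 25 and 23 CPM in CT wild types, and the stress-induced ligand Gdf15 at 215 and 254 CPM and 64.7 and 48.7 CPM. Neither ligand showed an overlap of the groups. The antagonist Grem1 had a log2 fold change of -1.06 ± 0.27, and the inhibitory Smad7 one of -0.93 ± 0.09. Bmp5 was higher, with a log2 fold change of 0.78 ± 0.18. In the TGF-beta list 8 of 21 were lower and 4 higher, with leave-out counts of 7, 5, 6 and 5 lower and 3, 1, 4 and 4 higher. Fst, the activin antagonist follistatin, was at 81.8 and 91.2 CPM in CG and 7.23 and 8.97 CPM in CT wild types. Grem1 did not pass without CG wild type replicate 2 or without either CT wild type (adjusted p 0.0723 to 0.0801 by edgeR). Bmp5 did not pass without either CG wild type or without CT wild type replicate 1 (adjusted p 0.0575 to 0.0962 by edgeR).

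In the insulin-like growth factor list 8 of 17 were lower and 2 higher, with leave-out counts of 5, 4, 5 and 4 lower. The lower ones included Igf2r, which clears IGF2, at 359 and 329 CPM and 205 and 207 CPM, and 4 binding proteins. The receptor gene Igf1r and its substrate Irs1 were the higher ones, Irs1 at 16.3 and 16 CPM in CG and 26.1 and 33 CPM in CT wild types. Fibroblast growth factor genes were lower in 6 of 19 and higher in 1, with leave-out counts of 5, 3, 3 and 4 lower. The ETS factors downstream of these receptors went opposite ways, Etv4 at 5.65 and 5.95 CPM in CG and 15.8 and 17.8 CPM in CT wild types, Etv5 at 129.8 and 136 CPM and 71.6 and 68.9 CPM. WNT genes passed at about the rate of all genes, 6 of 33 higher and 5 lower (18.2% and 15.2% beside 17.0% and 16.8% of all genes). Of the Notch genes 4 of 15 were higher and 2 lower (26.7% and 13.3%), among them Lfng, a modifier of Notch receptors, at 3.48 and 2.79 CPM and 16.4 and 16.5 CPM. For Notch genes the leave-out counts were 4, 2, 3 and 2 higher and 1, 0, 1 and 2 lower. Igf1r did not pass without either CG wild type, CT wild type replicate 1 or without either CT mutant (adjusted p 0.0611 to 0.19 by edgeR).

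Clock genes differed in both directions, with 22.2% higher and 33.3% lower beside 17.0% and 16.8% of all genes. Of 18 tested, 4 were higher and 6 lower in CT wild types, with leave-out counts of 3, 2, 3 and 4 higher and 4, 4, 6 and 4 lower. Arntl, the activator BMAL1, was at 36.4 and 33.9 CPM in CG and 12.2 and 13.7 CPM in CT wild types, and Per3 at 24.2 and 30.4 CPM and 10.6 and 8.8 CPM. Dbp, an output gene of the clock, had a log2 fold change of 2.20 ± 0.46, and Bhlhe41, a repressor, was at 3.55 and 2.95 CPM and 24.2 and 18.8 CPM. Arntl and Per3 were thus below, and Bhlhe41 above, in both CT wild types. Immediate early genes differed both ways, with 5 of 20 higher and 4 lower (25% and 20% beside 17.0% and 16.8% of all genes), and leave-out counts of 1, 1, 2 and 5 higher and 4, 4, 4 and 4 lower. Egr1 was at 133 and 147 CPM in CG and 547 and 381 CPM in CT wild types, and Klf4 at 687 and 693 CPM and 245 and 193 CPM. Dbp did not pass without CG wild type replicate 2 (adjusted p 0.0687 by edgeR).

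Erythroid markers were low in the CG wild types and higher in the CT wild types. Hbb-b1, adult beta globin, had no count in either CG wild type and was at 1014 and 617 CPM in the CT wild types. The related beta globin genes Hbb-bs and Hbb-bt did not pass, Hbb-bs at 3.33 and 6.74 CPM in CG and 4.16 and 0.306 CPM in CT wild types and Hbb-bt at 0.797 and 1.36 CPM and 1.13 and 0.068 CPM, and how reads were divided between beta globin genes is not known. Hba-a1, alpha globin, was at 5.4 and 5.67 CPM in CG and 1169.9 and 840.1 CPM in CT wild types, and its near-identical copy Hba-a2 can share its reads. Alas2, the erythroid enzyme of haem synthesis, was at 0.145 and 0.0798 CPM and 30.2 and 18.1 CPM. Of 13 erythroid markers tested, 11 were higher and 0 lower, and the other 2 were Hbb-bs and Hbb-bt, with leave-out counts of 9, 9, 9 and 10 higher. Their median log2 fold change was 6.38 as fitted and 5.02 with the 4 genes that had no count in CG wild types at their bound, a floor of 3 counts over the CG group. The 4 defining erythroid markers summed to 5.54 and 5.75 CPM in CG and 2217 and 1476 CPM in CT wild types, and Hbb-b1 among them was at 0 in both CG wild types. In such bulk libraries fewer cells of a type and less RNA per cell cannot be told apart.

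Neutrophil markers went with them, 12 of 20 higher and 1 lower, with leave-out counts of 6, 7, 8 and 12 higher. Ltf, lactoferrin of neutrophil granules, was at 0.326 and 0.399 CPM in CG and 31.3 and 23.7 CPM in CT wild types, and Ngp, another granule protein, at 0.905 and 0.958 CPM and 68.4 and 46.7 CPM. The lower one was Lcn2, which chondrocytes also make and which is given above. The 5 defining neutrophil markers summed to 16.3 and 19.9 CPM in CG and 198 and 138 CPM in CT wild types. Of the B cell and mast cell markers 5 were tested and 4 were higher, such as Cd79b at 0.145 and 0.359 CPM and 3.32 and 1.46 CPM, with leave-out counts of 2, 2, 2 and 3. The 5 defining macrophage markers summed to 24.9 and 24.4 CPM and 45.7 and 36.6 CPM. On the wider macrophage list 6 of 18 were higher and 2 lower. In turn, the leave-out counts were 0, 3, 1 and 4 higher.

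Endothelial markers were higher in 6 of 18 and lower in 0 (33.3% and 0% beside 17.0% and 16.8% of all genes). Among the higher ones was Cldn5, at 2.9 and 2.67 CPM in CG and 6.91 and 11.2 CPM in CT wild types. The 4 defining endothelial markers summed to 30.7 and 22.9 CPM and 48.8 and 93.5 CPM. The leave-out counts were 2, 1, 9 and 1 higher. Skeletal muscle markers were lower in 6 of 15 and higher in 1 (40% and 6.67%). Myog, the muscle factor myogenin, was at 4.93 and 5.15 CPM in CG and 0.212 and 0.374 CPM in CT wild types, and Myod1 at 35.8 and 31.1 CPM and 6.81 and 9.52 CPM, while Tnnt3, a fast muscle troponin, was at 0.326 and 0.279 CPM and 2.33 and 1.26 CPM. The 4 leave-out counts were 2, 2, 1 and 1 lower. Mesothelial, epithelial and nerve markers were higher in 5 and lower in 2 of 14 (35.7% and 14.3%). The epithelial Epcam was at 2.5 and 1.24 CPM and 14.5 and 8.67 CPM. Defining fibroblast markers summed to 1029 and 861 CPM and 2902 and 2627 CPM, and osteoblast markers to 6.66 and 8.86 CPM and 13.9 and 17.2 CPM. Only 2 of the 5 fibroblast markers and 1 of the 4 osteoblast markers passed, as higher. On the wider osteoblast and perichondrium list 2 of 17 were higher and 2 lower (11.8% each), and the median log2 fold change was -0.30. The part of these cell types in the results on collagens, contractile genes and cytokines was not tested. Myog did not pass without CT wild type replicate 1 (adjusted p 0.0551 by edgeR). Myod1 did not pass without either CG wild type, either CT wild type or without either CT mutant (adjusted p 0.0507 to 0.16 by edgeR). Tnnt3 did not pass without either CG wild type or without CT wild type replicate 1 (adjusted p 0.0584 to 0.0766 by edgeR).

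The altered gene sits in an intron of Wwp2, whose own mRNA was measured. Wwp2, a ubiquitin ligase gene, was at 497 and 489.8 CPM in CG and 244 and 295 CPM in CT wild types, both CT libraries below both CG libraries. The log2 fold change of -0.87 ± 0.28 passed narrowly, at an edgeR adjusted p of 0.0436, and in the order of the leave-out counts that p was 0.137, 0.137, 0.181 and 0.0961 with 1 library less. The arms of miR-140 were not analysed here, and Wwp2 mRNA does not report their level. The seed of the 3p arm, bases 2 to 8, is the region of the change in the CG mutants and is shown in capitals in the RefSeq mature sequence (chr8:107551288-107551308 on GRCm38.p6, plus strand).
mmu-miR-140-3p: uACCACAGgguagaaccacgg

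Of 20 reported targets of miR-140-5p tested, 6 were lower and 3 higher in CT wild types, with leave-out counts of 3, 3, 5 and 5 lower and 1, 1, 2 and 2 higher. The percentages, 30% and 15%, stand beside 16.8% and 17.0% of all genes, and the median log2 fold change was -0.25. Hdac4, a deacetylase that holds back hypertrophy, was at 52.7 and 52.4 CPM in CG and 39.4 and 32.4 CPM in CT wild types. Adamts5 and Mmp13, also reported targets, are given above. Dnpep, an aminopeptidase gene, had a log2 fold change of -0.32 ± 0.17 and did not pass. The 3 reported 3p targets, Nrip1, Cd38 and Ncoa1, had log2 fold changes of -0.33 ± 0.12, 0.84 ± 0.36 and -0.24 ± 0.11, and none passed. Hdac4 did not pass without CG wild type replicate 2 (adjusted p 0.0522 by edgeR).

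Some of the largest values belonged to near-identical gene copies, between which reads can be divided in counting. Ahcy, which breaks down S-adenosylhomocysteine, was at 2.97 and 1.64 CPM in CG and 92.8 and 109.8 CPM in CT wild types (log2 fold change 5.45 ± 0.56). Its copy Gm4737, 99.7% identical over the aligned transcript, was at 94.2 and 112 CPM in CG and was listed at 0 in both CT wild types. The sum was 97.2 and 114 CPM in CG and 92.8 and 109.8 CPM in CT wild types, and these ranges overlap. Eif3j1, a translation initiation factor subunit gene, was at 0.652 and 73.2 CPM in CG and 183 and 181 CPM in CT wild types. Its copy Eif3j2, 99.4% identical, was at 129 and 58.9 CPM and 1.55 and 1.39 CPM. The sum with the third copy, Gm3650, was 133 and 134 CPM in CG and 185 and 183 CPM in CT wild types, a narrower difference than for either gene. The CG wild types split their reads between the copies unlike each other, replicate 1 nearly all to Eif3j2. Of the 4843 genes that passed, 91 had a copy of at least 95% identity over 50% of the transcript, and 5 pairs of copies passed in opposite directions.

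**Figure D4:**
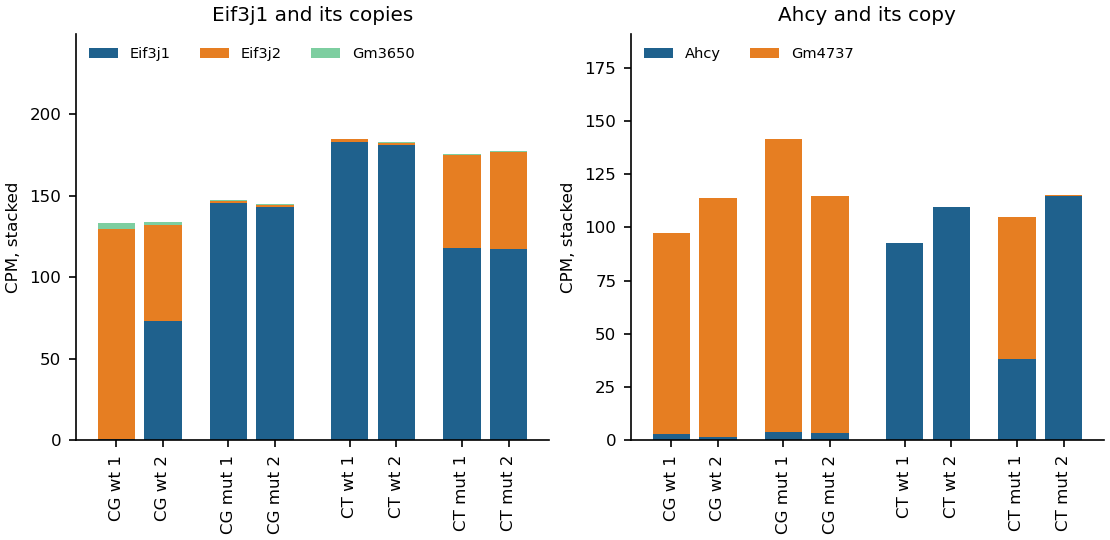
Stacked CPM (y axis) of Eif3j1 with its copies Eif3j2 and Gm3650 and of Ahcy with its copy Gm4737, in each of the 8 libraries (x axis; wt, wild type; mut, mutant). The colours change places between libraries, while the height of the Ahcy stack is alike in CG and CT wild types.

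The mutants of the lines differed in the same way at most genes. They enter the difference between wild types through the shared filter on low counts, scaling step and estimate of spread. Between CT and CG mutants 2565 genes were higher (17.9%) and 2620 lower (18.2%) at an edgeR adjusted p under 0.05. Of the 4843 genes that passed between wild types, 4773 (98.6%) had the same direction between mutants. Of them 3708 passed in mutants in that direction, which is 76.6% of the wild-type genes and 71.5% of the mutant genes. Across genes the log2 fold changes in wild types and mutants correlated with Pearson's r at 0.82 and Spearman's rho at 0.84, over 14359 genes that are not independent replicates, and the comparisons share the fit but no library. Mmp3 was at 19485 and 21719 CPM in CG and 1084 and 997 CPM in CT mutants, and Pfkl at 75.2 and 77.5 CPM and 283 and 296 CPM. Lcn2 was at 4422 and 2719 CPM and 209 and 165 CPM, and Hspb1 at 51.4 and 52.5 CPM and 183 and 139 CPM. In each of these 4 genes the mutants of a line lay on the side of its wild types, apart from all libraries of the other line. Lcn2 in CG mutant replicate 1 was well above both CG wild types.

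Several of the gene groups had the same direction in mutants. Acute phase, interleukin 6 and prostaglandin genes were lower in 16 of 29 and stress response genes in 28 of 30. Heat shock genes were higher in 14 of 16, glycolysis and hypoxia genes in 21 of 33 and replication genes in 26 of 32. In other lists the median changed sign, from -0.24 in wild types to 0.25 in mutants for NRF2 targets and from 0.35 to -0.04 for small matrix proteins, and the difference was not tested for the lists. Of the fibril collagens 1 of 7 was higher and 1 lower in mutants, with a median of -0.06. Col2a1 was at 41093 and 24140 CPM in CG and 31648 and 30879 CPM in CT mutants (log2 fold change -0.06 ± 0.27, adjusted p 0.877 by edgeR). The test of whether its line difference differed between wild types and mutants gave an edgeR adjusted p of 0.967.

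**Figure D5:**
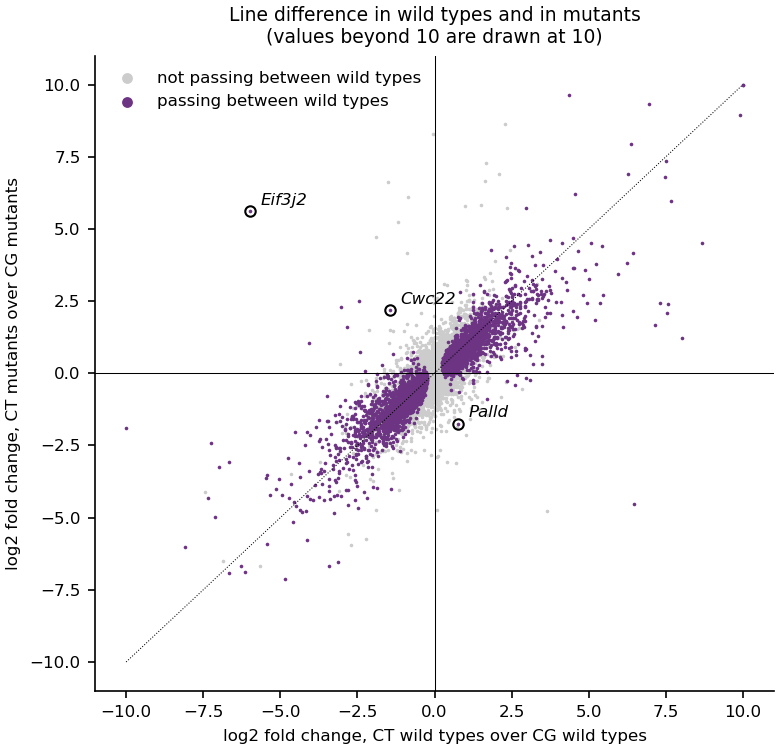
Log2 fold change of CT over CG mutants (y axis) against that of CT over CG wild types (x axis), 1 point a tested gene, purple where the gene passed between wild types. Most purple points lie near the dotted line of equal values, and Eif3j2, Cwc22 and Palld lie on the opposite side of 0 on 1 axis.

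A test of whether the line difference differed between wild types and mutants called 3 genes (0.0209%), with 686 at an unadjusted p under 0.05. By DESeq2 it called 38, and without CG mutant replicate 2 edgeR called 97. The 3 genes were Eif3j2, Cwc22 and Palld. Reads of Eif3j2 can be divided with its copies, and the sum over the copies was higher in CT in wild types and in mutants. Cwc22, a splicing factor gene, was at 138 and 134 CPM in CG and 46.1 and 53 CPM in CT wild types but 43.3 and 40.0 CPM in CG and 239 and 143 CPM in CT mutants. Palld, of the actin-binding protein palladin, was at 72.6 and 49.2 CPM and 101 and 107 CPM in wild types and 151 and 138 CPM and 43.6 and 42.4 CPM in mutants. In both genes the order of the lines was opposite in wild types and mutants. In all, 9 genes passed in opposite directions in wild types and mutants, among them Lmcd1, Srp54a, Ddit4l and Map1a. Eif3j2, Cwc22 and Srp54a stand on the list of genes with polymorphic copy number, and the copy number in these mice was not tested. Lmcd1 did not pass without either CG wild type or without CT wild type replicate 1 (adjusted p 0.0554 to 0.0621 by edgeR). Map1a did not pass without either CG wild type or without CT wild type replicate 2 (adjusted p 0.0532 to 0.0953 by edgeR).

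The authors' deposited table of comparisons covers this contrast in part. The authors' deposited table lists 2655 genes, of which 2079 have a q-value under 0.05 between the wild types, 2047 higher and 32 lower in CT. Of the genes that passed here, the authors' deposited table holds 2067 of 2436 higher ones and 29 of 2407 lower ones. Mmp3, Lcn2 and Il6, given above, are not among the genes listed in the authors' deposited table. For the 2650 genes in both, 2649 log2 ratios of the authors' deposited table had the same sign as those fitted here, with a median absolute difference of 0.0029.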

How the data were processed

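Reads were aligned with HISAT2 2.0.4 to mm9, per the submitters' processing notes. The counting tool and annotation: not given in the sources used here. Estimated counts per gene for 8 libraries stand in the table that the authors deposited (totals of 26536868 to 28678641, with 2282 to 2518 values a library that were not whole), as do FPKM values, also deposited by the authors. A further deposited table of the authors gives log2 ratios and q-values for part of the genes.

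Estimated counts were rounded and fitted with edgeR 4.0.16 in R 4.3.3 (TMM factors, filterByExpr, quasi-likelihood F test) as 4 group means over all 8 libraries, which leaves 4 residual degrees of freedom. Positive values are higher in CT. SE was taken as the size of the log2 fold change over the root of the F statistic, adjusted p-values are Benjamini-Hochberg over 14359 genes, and the threshold is 0.05. CPM are counts scaled to each library's TMM-adjusted total. The steps were tested on simulated data in which a small share of genes was changed, as many up as down. That test does not bear on the scaling where a large share of genes differs, as here. Alternatives used limma 3.58.1, DESeq2 1.42.0, other scalings, filters, FPKM on the log2(value + 1) and log2(value + 0.1) scales, a term for Y-linked counts, a replicate block and each library left out.

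No 2 libraries were duplicates by a chi-square of their counts. Gene order, promoters and the microRNA came from RefSeq (GRCm38.p6). There 18381 of 18501 gene IDs matched and 11337 of 14359 tested genes had a window. Near-identical copies were found by aligning GENCODE mouse transcripts to each other with minimap2. The files' own build differs, so no gene coordinates are given on it. Gene symbols that a spreadsheet had turned into dates, 24 in all, were restored by gene ID.

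The members, gene lists and motifs were chosen with earlier results of these data known. Genes named were Wwp2, Mki67, Sox9, Acan and the collagen genes Col1a1, Col2a1 and Col10a1, then the 15 largest changes in each direction (mean log2 CPM 1 or more, no overlap of groups), the 5 smallest p-values in each direction, genes that passed the test of wild types against mutants or passed in opposite directions, and up to 5 members of each list with the smallest p-values or highest CPM. Names were also given where a list's count was small or a role was to be shown, and these were chosen after values were seen. Some genes of the lists are not reported here.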

Additional observations from a re-analysis of the deposited data

Results flagged for a closer look

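The difference between the lines itself differed between wild types and mutants for 3 genes in an edgeR test of that difference with Benjamini-Hochberg adjustment. The log2 fold change of CT over CG was lower in wild types than in mutants by a difference of -11.62 for Eif3j2 and -3.66 for Cwc22, and it was higher in wild types by 2.52 for Palld. Eif3j2 and Cwc22 stand on the list of genes with polymorphic copy number, and the copy number in these mice was not tested. Eif3j2 has near-identical copies between which reads can be divided. The sum over the copies was 133 and 134 CPM in CG and 185 and 183 CPM in CT wild types. In mutants the sum was 147 and 144.5 CPM in CG and 175 and 177.5 CPM in CT, so it was higher in CT in both comparisons. The difference between wild types and mutants was not tested for the sum. Without CT wild type replicate 1 only 1 gene passed, and without CG mutant replicate 2 there were 97.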

How the results depend on the processing

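The counts of genes between wild types, 2436 higher and 2407 lower, ranged from 995 to 2710 higher and from 1142 to 2615 lower with each library left out. Those past 2-fold, 857 and 938, ranged from 507 to 970 and from 645 to 1035. With limma on log2(FPKM + 1) they were 3248 higher and 1567 lower, with 461 and 358 past 2-fold, and on log2(FPKM + 0.1) 3207 and 1592. Library totals as the only scaling gave 3215 and 1672, and moved the median of all genes to 0.126. Between mutants, 2565 higher and 2620 lower became 4104 and 1577 with library totals, 4040 and 1504 on log2(FPKM + 1) and 4088 and 1528 on log2(FPKM + 0.1), and ranged from 1449 to 2566 and from 1445 to 2645 with a library left out. The 3 genes whose line difference differed between wild types and mutants became 38 with DESeq2 and 5 with no filter on low counts, and ranged from 1 to 97 with a library left out. The cause was not tested.

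Of 152 genes named here that passed, 110 passed in each of the 4 fits without 1 wild-type library and 138 in each fit with another tool, scaling, filter or unit. Direction reversed for genes that did not pass. With a library left out, Col27a1 ranged from -0.17 to 0.38, Sox9 from -0.01065 to 0.13, Hbb-bt from -3.89 to 0.07708 and Ddx3y from -7.18 to 9.72, and Ddx3y was at -1.72 with the replicate block. The 2 libraries a group and 4 residual degrees of freedom limit which small differences can be called.

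With the replicate number as a block, 2188 genes were higher and 2202 lower. The labels give no meaning to the number. Deviations of same-numbered libraries had a correlation of -0.08 between CG and CT wild types and of 0.25 between CT wild types and CT mutants. The other pairs of groups ranged from -0.09 to 0.02. Whether same-numbered libraries share more than a number was not tested.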

Other observations

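Gene lists outside the comparisons above showed these counts in CT wild types, beside 17.0% of all genes higher and 16.8% lower. Chondroitin sulfate and hyaluronan synthesis genes were higher in 4 and lower in 7 of 25 (16% and 28%), with leave-out counts of 3, 3, 4 and 4 higher and 5, 4, 6 and 5 lower. Papss2, which makes the sulfate donor of these chains, was at 375 and 405 CPM in CG and 173 and 166 CPM in CT wild types, below in both. Histocompatibility genes were higher in 2 and lower in 3 of 25 (8% and 12%), with leave-out counts of 2, 1, 1 and 2 higher and 1, 1, 2 and 1 lower. H2-Q10 was at 4.27 and 10.3 CPM in CG and 2.36 and 1.16 CPM in CT wild types, and genes of this family share reads. H2-Q10 did not pass without CG wild type replicate 2 or without CT wild type replicate 2 (adjusted p 0.129 and 0.105 by edgeR). Targets of p53 were higher in 5 and lower in 8 of 24 (20.8% and 33.3%), with leave-out counts of 3, 2, 3 and 3 higher and 3, 4, 7 and 4 lower. Respiratory chain genes were higher in 6 and lower in 0 of 73 (8.22% higher), below the share of all genes, and the leave-out counts were 0, 0, 12 and 1 higher and 0, 0, 0 and 4 lower. Hedgehog and PTHrP genes were higher in 3 and lower in 5 of 14 (21.4% and 35.7%), with leave-out counts of 1, 3, 3 and 2 higher and 3, 3, 4 and 4 lower. Gli1, a read-out of hedgehog signalling, was at 0.181 and 0.319 CPM in CG and 1.38 and 1.05 CPM in CT wild types, while Ihh itself was lower. Gli1 did not pass without CG wild type replicate 1 (adjusted p 0.0617 by edgeR).

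Gene counts differed most between libraries of different lines. The chi-square per degree of freedom between gene counts was 19.3 for the 2 CG wild types and 26.6 for the 2 CT wild types. Within the CT line, wild types against mutants gave 16.0 to 42.6. Within the CG line, the wild types gave 88.5 and 78.1 against CG mutant replicate 1 and 27.9 and 20.2 against replicate 2, and the mutants of that line gave 54.3 between them. Between a library of the CG line and one of the CT line it ranged from 221 to 299.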
